A study of Mus musculus with 4 samples.

Results

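The regions described here are stretches of chromatin that were called accessible in both libraries of aged blood stem cells and in neither library of young ones. They were chosen from the measured peaks. The narrow peak intervals of 4 libraries were merged wherever they shared at least 1 bp. A merged region was kept when both aged libraries had a narrow peak with a q-value under 0.05 (the adjusted p-value of the peak caller, used below as −log10 q) and neither young library had a narrow peak of any strength. This rule kept 3158 of 181695 merged regions, 1.74% of all, and they are called old-only regions below. Peak presence, fold enrichment and q-value in the 4 libraries chose them, so these values are given as a description and carry no test.

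The study used ATAC-seq, an assay that lets a transposase cut and tag exposed DNA, to map accessible chromatin in wild-type C57BL/6 mice. The cells were long-term repopulating stem cells of the blood, LT-HSCs. Of the 4 libraries, 2 came from young mice of 4 to 5 months and 2 from aged mice of 20 to 22 months, and neither group carried a treatment. The labels call the replicates biological, while the number and sex of the mice behind each library are not given in the sources used here. The libraries are bulk samples, so a site open in more cells cannot be told apart from a site more open in each cell. Read depth is unknown, and the narrow lists held 106186 to 133131 intervals. All 10 hematopoietic stem cell marker genes examined had a narrow peak of q under 0.05 within 1 kb of a gene end in each of the 4 libraries. The share of all protein-coding genes with such a peak was not counted, so this count alone does not identify the cells.

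LT-HSCs sit at the top of blood formation and renew themselves for life. In mice their number rises with age, while single cells give less balanced blood and tend to produce more platelets and myeloid cells and fewer lymphocytes. Accessible regions far from gene ends are often enhancers, which transcription factors open, while promoters of broadly used genes tend to be open in most cells.

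Sequences were at hand for gene promoters only. RefSeq windows of GRCm38.p6 reach from 250 bases before to 50 bases after an annotated start, which can lie inside the gene. Of the old-only regions, 60 (1.90%) overlapped at least 1 such window. Such regions on protein-coding windows numbered 36, at 36 genes. The 3 promoters below are shown because their genes belong to stem cell ageing or to red cell formation, and each lies wholly or mostly under an old-only region. Nupr1 encodes a small stress-response protein of the nucleus, Gata1 the transcription factor of red cells and megakaryocytes, and Hbb-bs an adult beta globin. Each line gives the 250 bases before the start, 5′ to 3′ on the gene's strand. The Gata1 window lies inside the gene, and the midpoint of its region was 8451 bp from the nearest gene end. Capitals mark an E-box in Nupr1, a CTCF-type match in Gata1 and a GATA match in Hbb-bs.
Nupr1 (chr7:126625471-126625720, minus strand): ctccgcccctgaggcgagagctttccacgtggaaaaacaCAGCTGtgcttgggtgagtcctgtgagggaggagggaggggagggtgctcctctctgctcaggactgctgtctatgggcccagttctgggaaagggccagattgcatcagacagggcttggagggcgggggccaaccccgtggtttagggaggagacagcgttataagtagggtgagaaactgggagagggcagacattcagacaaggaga
Gata1 (chrX:7967911-7968160, minus strand): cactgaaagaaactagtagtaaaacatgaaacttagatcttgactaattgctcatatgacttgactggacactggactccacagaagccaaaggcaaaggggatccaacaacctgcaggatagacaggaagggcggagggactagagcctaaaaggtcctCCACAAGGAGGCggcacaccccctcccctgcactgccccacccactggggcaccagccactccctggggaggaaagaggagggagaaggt
Hbb-bs (chr7:103827929-103828178, minus strand): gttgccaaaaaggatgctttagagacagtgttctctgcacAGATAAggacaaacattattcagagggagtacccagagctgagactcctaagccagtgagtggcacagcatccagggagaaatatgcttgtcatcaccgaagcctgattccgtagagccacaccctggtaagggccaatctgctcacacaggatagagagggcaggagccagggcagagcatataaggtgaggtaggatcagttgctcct

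The next lines show the 3 promoters whose AP-1 match (TGANTCA, the site of Fos and Jun proteins, in capitals) lay before the gene's start and inside the old-only region. Sprr1a encodes a small proline-rich protein of the epidermal barrier, and Apol9a and Apol9b encode apolipoproteins L. The Apol9a and Apol9b windows share a run of up to 281 identical bases of 300, so reads may not be assignable to 1 of them and both regions are uncertain. The lines run 5′ to 3′ on the gene's strand.
Sprr1a (chr3:92485981-92486067, minus strand): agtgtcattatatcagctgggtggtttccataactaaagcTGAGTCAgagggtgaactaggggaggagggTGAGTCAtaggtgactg
Apol9a (chr15:77411040-77411126, minus strand): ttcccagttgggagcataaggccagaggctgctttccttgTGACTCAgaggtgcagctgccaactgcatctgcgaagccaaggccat
Apol9b (chr15:77729048-77729120, plus strand): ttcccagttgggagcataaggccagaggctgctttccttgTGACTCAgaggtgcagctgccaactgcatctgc

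How many regions the rule finds was set against its mirror image and against the 2 other ways to split 4 libraries into pairs. The reverse rule, both young libraries and neither aged one, found 1309 young-only regions, 0.72% of all. Old-only regions were therefore 70.7% of the 4467 age-specific regions (exact 95% interval 69.3% to 72.0%, which covers counting error only), a ratio of 2.41. The split by replicate number gave 2682 one-sided regions and the crossed split 3162. Libraries with the same replicate number carry a common tag in their peak names, and what it marks is not given in the sources used here. Unequal sides also appeared where age was balanced: 2067 regions (1.14% of all) were found in both replicates 2 and neither replicate 1 against 615 (0.338%) the other way, a ratio of 3.36. Regions in aged replicate 1 and young replicate 2 only numbered 1809 (0.996%), and those in aged replicate 2 and young replicate 1 only numbered 1353 (0.745%).

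The lists differed in their shortest intervals, and both age-specific counts changed when short intervals were left out. The shortest narrow interval was 148 bp in young replicate 1, 141 bp in young replicate 2, 130 bp in aged replicate 1 and 105 bp in aged replicate 2. Intervals of up to 150 bp made up 0.831%, 3.55%, 6.72% and 15.6% of the 4 lists in the same order. With only longer intervals in every library, a setting chosen after seeing the data, there were 2359 old-only and 2170 young-only regions, and the old-only share was 52.1% with a ratio of 1.09. With each library reduced to its 106186 strongest intervals by p, the counts were 3268 and 2187, a share of 59.9%. The split by age gave the most one-sided regions of the 3 splits in each of these settings, with 4529 for longer intervals against 2673 and 3506, and 5455 for equal lists against 3180 and 4181.

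**Figure D1:**
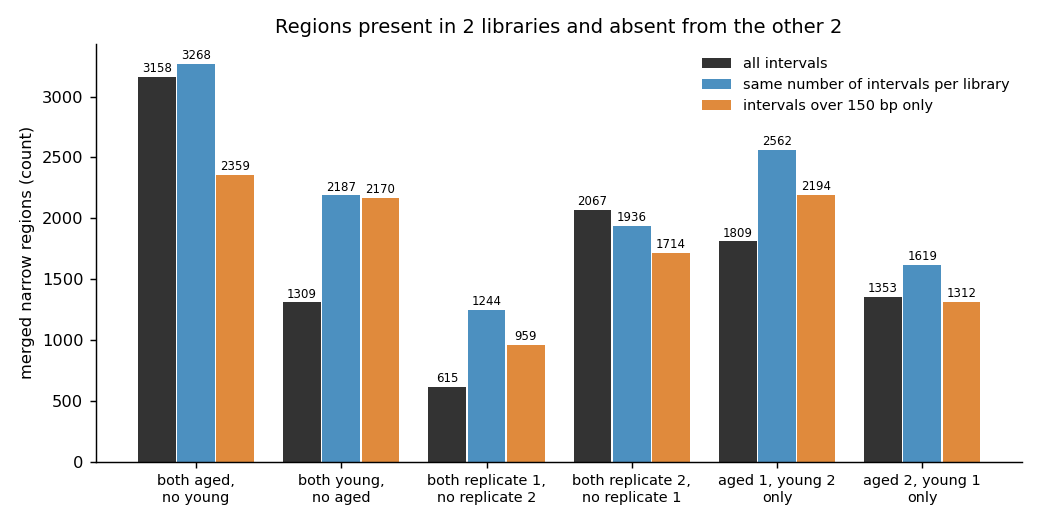
Number of merged narrow regions (y axis) present in 2 libraries and absent from the other 2, for the 6 one-sided sets (x axis), with all intervals, with the same number of strongest intervals per library, and with intervals over 150 bp only. The old-only bar is the tallest of the 6 in each setting, at 3158, 3268 and 2359, while the young-only bar rises from 1309 to 2187 and 2170.

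The regions nearest to the threshold on each side were picked by their −log10 q, so they differ little in it. Just inside lay a region within Tbxas1 with a −log10 q of 1.3011 in aged replicate 1, and a region near 1700012B07Rik with 1.3027 in aged replicate 2. Just outside lay regions within Apobec3 and near Mylk4, both with 1.3005 in aged replicate 1. In all, 2129 regions had narrow peaks in both aged libraries and in no young one but did not reach the threshold in an aged library.

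Most old-only regions were weak for their library. The median fold enrichment, the authors' ratio of signal over local background, was 3.26 in aged replicate 1 and 4.20 in aged replicate 2. The median −log10 q was 2.98 and 4.19. Relative to all intervals of the same list, 91.2% of the regions lay below the median −log10 p in aged replicate 1 and 73.3% in aged replicate 2. The fold was higher in aged replicate 2 at 2503 regions (79.3%), close to the 78.2% of regions with a peak in all 4 libraries. Both aged libraries reached a −log10 q of 5 at 401 old-only regions (12.7%), while both young libraries did so at 77 young-only regions (5.88%). Across the 3158 regions the folds of the 2 aged libraries had a Pearson correlation of 0.463 and a Spearman correlation of 0.437, and all points share those libraries.

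Many of the weak regions had the very same value. In aged replicate 1, 427 regions (13.5%) had a fold of 2.93 and a −log10 q of 1.66, and in aged replicate 2, 238 regions (7.54%) had 3.17 and 1.85. Within these libraries 2092 and 1896 regions shared their exact pair of values with another one. The strongest summits of the 2 aged libraries lay a median of 27 bp apart, and within 50 bp at 2244 regions (71.1%). Among regions of up to 400 bp the median was 22 bp, with 77.4% within 50 bp, against 17 bp and 84.1% for regions of that width with a peak in all 4 libraries.

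Ranked by the weaker of the 2 aged −log10 q-values, the 4 strongest old-only regions were short and lay inside genes. A region of 135 bp within Gnb1l, a WD-repeat protein gene (chromosome 16, 18533192 to 18533326), had a fold of 12.39 in aged replicate 1 and 13.06 in aged replicate 2, with no broad peak in either young library. One of 139 bp within Cdk5rap2, a centrosome protein gene (chromosome 4, 70378118 to 70378256), had 11.73 and 15.83 and again no young broad peak. The next ones, of 145 bp within the protein kinase gene Rock1 and of 142 bp within Ss18, a subunit gene of the BAF remodelling complex, had folds of 8.80 and 11.87, and of 8.47 and 11.87. Both did have young broad peaks, with a −log10 p of 9.21 and 11.22 at Rock1 and of 10.56 and 5.71 at Ss18. All 4 were under 150 bp wide.

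Behind them came 6 wider regions. A region of 464 bp, 489891 bp from Car10, a carbonic anhydrase-related gene, had folds of 8.15 and 11.08, and one of 800 bp within the nuclease-domain gene Snd1 had 5.85 and 7.17. The region nearest the neuropeptide Y receptor gene Npy1r, 66072 bp away, had 7.50 and 14.25. Regions within Suclg2, a subunit of succinyl-CoA ligase, and within the ubiquitin ligase gene Ubr4 had 6.91 and 10.65, and 7.17 and 7.91. The region nearest Tcim, at a distance of 126039 bp, had 7.17 and 12.66. Aged replicate 2 had the higher fold at each of the 6.

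In all, 107 old-only regions (3.39%) were up to 150 bp wide, against 0 young-only regions and 42 of the 7153 regions (0.587%) of the 5 other sets together. Their median folds of 3.26 and 3.96 were near the 3.26 and 4.23 of the wider regions. A young broad peak was missing at 19 of them (17.8%) and at 192 of the 3051 wider ones (6.29%). Both −log10 q-values reached 5 at 24 (22.4%) of the short and 377 (12.4%) of the wider regions. The part of the shorter interval length in these regions was not tested.

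**Figure D2:**
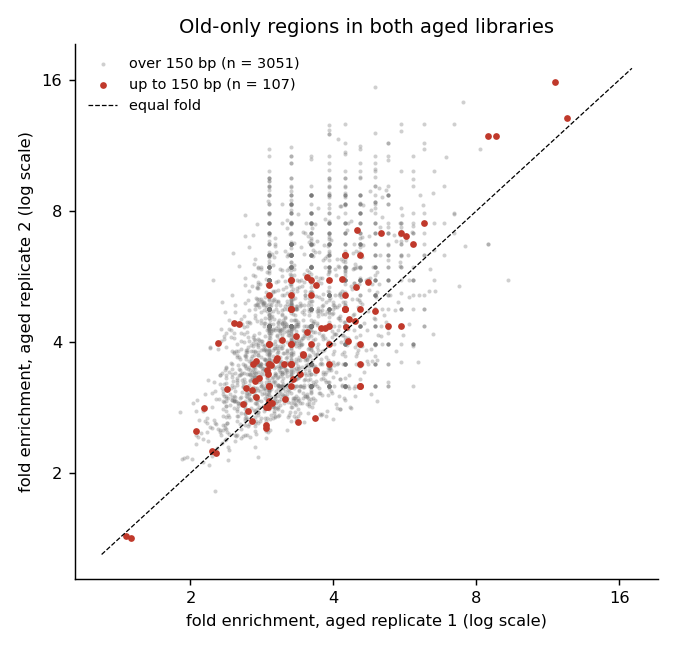
Fold enrichment in aged replicate 1 (x axis) and aged replicate 2 (y axis), both on log scales, for each of the 3158 old-only regions; red points are the 107 regions of up to 150 bp, grey points the 3051 wider ones, and the dashed line marks equal fold. Most points lie above the line (79.3%), repeated values form columns such as the one at 2.93, and the 4 strongest red points stand apart at the upper right.

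Most old-only regions, which lack a young narrow peak, overlapped a broad peak of a young library. The authors also deposited a broad list for each library, whose weakest peaks reach a −log10 p of 1 against 2 in the narrow lists. A broad peak overlapped 2333 old-only regions (73.9%) by at least 1 bp in young replicate 1 and 2702 (85.6%) in young replicate 2. Both young libraries had one at 2088 (66.1%), and neither at 211 (6.68%). These young broad peaks were mostly weak, with a median −log10 p of 1.86 and 1.67, and only 14.6% and 13.1% of the regions had one of q under 0.05. In the aged libraries every old-only region had a broad peak, of q under 0.05 at 32.9% and 53.7%. The median broad fold was 1.97 and 1.88 in the young and 2.32 and 2.59 in the aged libraries. The nearest young narrow peak lay a median of 2682 bp away, and within 500 bp at 412 regions.

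The mirror set had the same form. Aged broad peaks overlapped 85.7% and 84.2% of the young-only regions, 8.02% in each aged library with q under 0.05, and 41 young-only regions (3.13%) lacked any aged broad peak. Regions free of both narrow and broad peaks in the other age thus numbered 211 for aged and 41 for young libraries. The broad lists were of unequal length, with 242700 and 461860 peaks in young replicates 1 and 2. Aged replicates 1 and 2 had 322627 and 468792. The part of list length in the 211 and 41 regions was not tested. In the 4 sets that balance age, the share with no broad peak in either absent library was 1.79% to 5.25%.

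**Figure D3:**
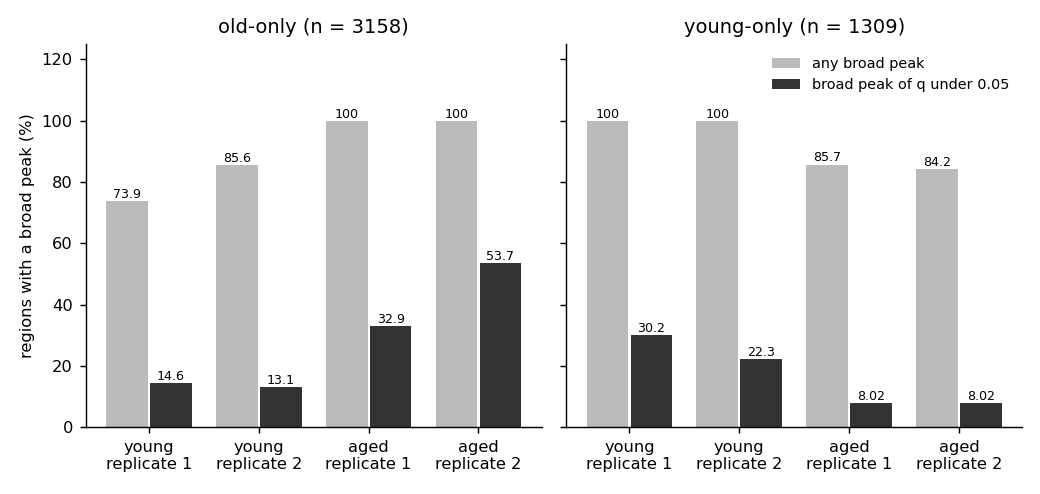
Percent of the 3158 old-only (left) and 1309 young-only regions (right) that a broad peak overlapped in each library, for any broad peak (grey) and for broad peaks of q under 0.05 (black). In the libraries that lack a narrow peak the grey bars still reach 73.9% to 85.7%, while the black ones stay between 8.02% and 14.6%.

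The authors' deposited tables give sites whose normalized reads differed between the ages, made from the same libraries, so they are set beside the regions only as a description. Among broad sites, 89 of the 246 gained ones (36.2%) in the authors' deposited table overlapped 92 old-only regions, or 2.91% of these, and 0.165% of all merged regions overlapped a gained site. Only 1 region of the 5 other sets did, in aged replicate 1 and young replicate 2. The log2 fold at the 89 sites ranged from 1.06 to 3.96 in the authors' deposited table, with a median of 1.84 against 1.93 for all gained broad sites, and their median level was 6.55 log2 normalized reads in aged and 4.62 in young libraries. None of the 27 gained narrow sites in the authors' deposited table overlapped an old-only region, while by construction 0.0149% of all merged regions were such sites.

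The smallest FDR belonged to a region of 701 bp on chromosome 5 (126537952 to 126538652), 688341 bp from Gm4868, with peak folds of 5.87 and 10.68. Its level was 6.80 in aged and 2.84 in young libraries in the authors' deposited table, a difference of 3.96 with an FDR of 5.51e-09. A region 934311 bp from the alpha-catenin gene Ctnna2 differed by a log2 fold of 2.43 with an FDR of 2.19e-05, as the authors' deposited table gives it, and those at Car10 and Snd1 had 2.27 (FDR 2.31e-05) and 2.62 (FDR 8.04e-05). A region within Rit2, a small GTPase gene, came next, with 2.28 and FDR 0.000108 per the authors' deposited table. Each of these 5 sites had a higher aged than young level in that table, and at Gm4868 and Ctnna2 neither young library had a broad peak.

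Some old-only regions lay in sites that the tables list as lower in aged libraries. For broad sites the authors' deposited table has 10 such losses, out of 1079 lost sites listed. Lost broad sites overlapped 10 of 3158 old-only regions, 23 of 1309 young-only regions and 3 to 6 regions of each set that balances age. The share over all merged regions was not counted. Among the 10 in the authors' deposited table were one over the Rgs1 region with a log2 fold of -0.99, FDR 0.0153, and one over the region within Fli1, an ETS factor of stem cells and megakaryocytes, at -0.40, FDR 0.00497. Lost narrow sites number 4905 in the authors' deposited table, each with the span of 1 of the 181695 merged regions. They overlapped 1 of 3158 old-only regions, 4 of 1309 young-only regions and 0 or 1 region of each set that balances age. The only overlap of an old-only region with the authors' deposited table of narrow sites was a lost one at Fosb, a subunit gene of AP-1. It had the same span as the region and a level of 7.92 in young and 7.19 in aged libraries (log2 fold -0.72, FDR 0.0238). This old-only region of 289 bp within Fosb (chromosome 7, 19303758 to 19304046) had folds of 2.25 and 1.82 in the aged libraries, and its nearest young narrow peak was 249 bp away. In these regions a narrow peak was called in aged libraries alone, while the level over the listed site was lower in aged libraries. The broad sites were wider than the regions, and the one at Fli1 ran from 32539278 to 32544939 over a region of 157 bp. Only at Fosb did peak and level cover the same span. Presence of a called peak and amount of signal are separate measurements.

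Old-only regions lay away from gene ends, as did the other one-sided sets. Of the 3132 regions on the autosomes, X and Y, 152 (4.85%, exact 95% interval 4.13% to 5.66%) had their midpoint within 1 kb of an end of a protein-coding gene, against 10.2% of all merged regions and 15198 of 101098 regions with q under 0.05 in at least 2 libraries. In the other one-sided sets this share was 3.28% to 4.86%. The median distance was 23709.5 bp, compared with 25083 bp in the 5 other sets together and 16139 bp for the regions found in at least 2 libraries. A gene body held 51.4% of the old-only regions and 55.9% of the latter, and 19.9% and 14.1% lay over 100 kb from a gene end. With the regions divided into 4 groups by the lower q-value, the share near gene ends was 4.28% to 5.42%, with no order.

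**Figure D4:**
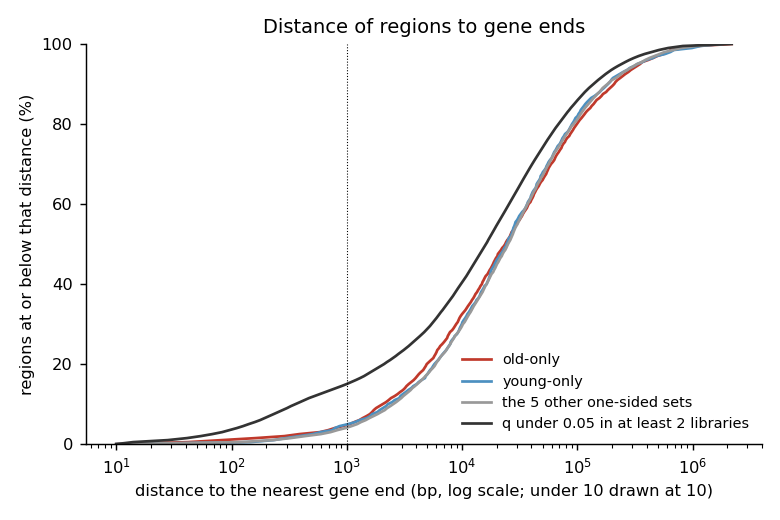
Cumulative percent of regions (y axis) by distance from their midpoint to the nearest end of a protein-coding gene (x axis, log scale; the dotted line marks 1 kb). The curves of old-only, young-only and the 5 other one-sided sets run close together, with 4.85%, 4.86% and 4.11% within 1 kb, below the curve of regions with q under 0.05 in at least 2 libraries.

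The regions were narrow. Their median width was 313 bp, with quartiles of 233 and 430 bp and a range of 130 to 1180 bp, against 375 bp for young-only regions and 639 bp for regions found in at least 2 libraries. The widest was 1180 bp, 7074 bp from Xirp2, a muscle actin-binding gene. One of 1124 bp (chromosome 15, 62169126 to 62170249) lay 179326 bp from Myc, the growth regulator, with folds of 3.91 and 8.61, and 2 further regions nearest Myc lay 344273 and 402393 bp away. Next came 1116 bp near Smarcd1, another remodelling subunit gene, 1101 bp within Nckap5 and 1096 bp at the start of Serpina3i, a serine protease inhibitor gene.

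Chromosomes held old-only regions roughly as they held other regions. The share of each autosome was 0.755 (chromosome 19) to 1.17 times (chromosome 16) its share of regions found in at least 2 libraries, and X had 2.68% against 2.92%. The Y chromosome had 4 regions. On chromosome 15 lay 111 (3.54%, exact 95% interval 2.92% to 4.25%) against 3.86%. Old-only regions within 50 kb of another one numbered 673 (21.3%), against 7.94% of the young-only regions and 5.53% to 12.7% in the sets that balance age. A larger set has more close pairs by its size alone, and no correction for size was made.

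Genes known to rise in old HSCs were often the nearest gene. A list of 37 such genes was drawn from general knowledge of aged stem cells, with earlier results of these data known. Of them, 19 (51.4%) were the nearest protein-coding gene of at least 1 old-only region. The background was 2501 of 21887 protein-coding genes (11.4%). For the 5 other one-sided sets the list had 2 to 6 genes, 5.41% to 16.2%, and the share of all genes was 2.66% to 8.17%. Long genes collect more regions: of genes at least as long as the list's median of 52258 bp, 26.2% were nearest to an old-only region, against 9 of the 19 list genes of that length (47.4%). Among shorter genes the share was 7.34%, against 10 of 18 list genes (55.6%). With intervals over 150 bp only, the list had 17 such genes for old-only and 3 for young-only regions, and with equal lists 19 and 5. The share of all genes was not counted in these 2 settings.

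The 29 regions behind this count lay within genes in 13 cases. Nupr1 had a region over its promoter (chromosome 7, 126625387 to 126625735), 91 bp from the gene, with folds of 2.36 and 3.44, a −log10 q of 2.31 and 6.42, and no young broad peak. The site over this region had 5.88 log2 normalized reads in young and 7.49 in aged libraries in the authors' deposited table (FDR 0.00117). A second Nupr1 region lay 6361 bp away, with folds of 3.54 and 2.98. Both were below the median fold of their library.

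Other regions of the list lay inside or far from their gene. Rorb, a nuclear receptor gene, was nearest to 4, of which 3 lay inside it, with folds of 3.26 to 5.54 in aged replicate 1 and 3.17 to 7.12 in aged replicate 2. Ptprk, a receptor phosphatase gene, had 3 inside. Alcam, a cell adhesion gene, was nearest to 3 at 572727 to 1237587 bp, and at the one of 1033 bp width the authors' deposited table gives a log2 fold of 1.79 at FDR 0.00499. Selp, which encodes P-selectin, had a region of 257 bp inside it with folds of 4.00 and 3.59, and its nearest young narrow peak was 99 bp away. Single regions lay inside Cd38, an NAD-consuming surface enzyme (3.55 and 4.72), Neo1, the receptor neogenin (2.93 and 9.39), and Tgm2, transglutaminase (3.48 and 5.24). The region nearest Ehd3, a membrane traffic gene, had 3.26 and 11.21 at 21340 bp, and that nearest Vwf, von Willebrand factor, had 2.93 and 3.56 at 28687 bp. At Mt2, a metallothionein gene, a region of 162 bp at 993 bp had 3.03 and 3.09, and both young libraries had broad peaks there with a −log10 p of 6.81 and 5.59.

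**Figure D5:**
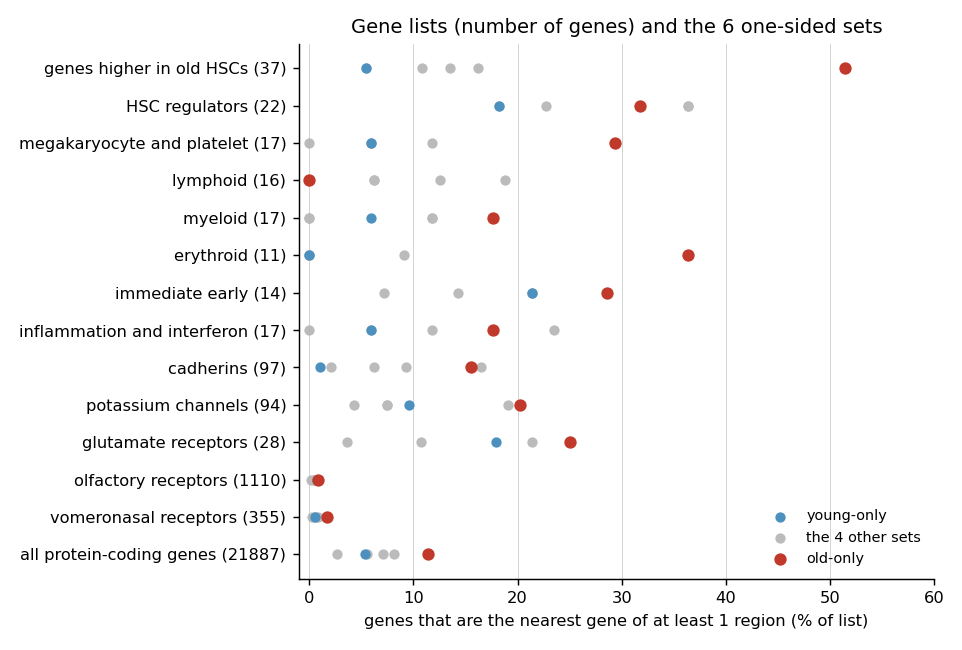
Percent of the genes of each list (rows, with the number of genes) that were the nearest protein-coding gene of at least 1 region (x axis), for old-only (red), young-only (blue) and the 4 other one-sided sets (grey). The lists were chosen with earlier results of these data known. For genes higher in old HSCs the red point lies at 51.4% and the others between 5.41% and 16.2%, while for all protein-coding genes the red point lies at 11.4% and the others between 2.66% and 8.17%; points of equal value cover each other.

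Lineage genes are set against the share of all protein-coding genes, which was 11.4% for old-only regions and 2.66% to 8.17% for the other sets, since the old-only set is the largest. The megakaryocyte and platelet list had 5 of 17, 29.4% (Cd9, Gata1, Selp, Vwf and Zfpm1), against 0 to 2 in the other sets, and 3 of these, Cd9, Selp and Vwf, are also on the list of genes higher in old HSCs. The erythroid list had 4 of 11 (36.4%) against 0 to 1, and the myeloid list 3 of 17 (17.6%) against 0 to 2. The regions of the erythroid list were at Gata1, at Slc4a1, the anion exchanger of red cells, at Alas2, the first enzyme of heme synthesis in them, and at Tfrc, the transferrin receptor. The Gata1 region of 552 bp (chromosome X, 7967937 to 7968488), whose promoter sequence is given above, had folds of 3.71 and 3.84, with young broad peaks of a −log10 p of 1.44 and 1.57. The Slc4a1 region of 499 bp lay 51 bp from the gene with 3.26 and 3.66, and the site over it has a difference of 1.44 (log2, FDR 0.00805) in the authors' deposited table. At Alas2 the folds were 3.59 and 4.35, and at Tfrc, 2696 bp from the gene, 4.56 and 5.91. The young libraries had weak broad peaks at these too, with a −log10 p of at most 2.54. With intervals over 150 bp only the list had 2 of 11 such genes, and with autosomes only, which leaves out Gata1 and Alas2, it also had 2. The share of all genes was not counted in either setting.

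Markers of other cell types had accessible gene ends in both ages. Of 5 erythroid markers, 4 and 3 had a narrow peak of q under 0.05 within 1 kb of a gene end in the young and 4 and 5 in the aged libraries. Slc4a1 lacked one in both young libraries, and Alas2 in young replicate 2 and aged replicate 1. The old-only region 51 bp from Slc4a1 is such a peak in both aged libraries, so the rule that chose it partly set this difference. All 4 megakaryocyte markers had one in every library. B cell markers had 1 and 2 of 4 in young and 2 and 3 in aged libraries, T cell markers 2 and 2 of 5 and 2 and 3, and granulocyte and monocyte markers 1 and 2 of 6 and 2 and 2. Aged replicate 2 had the highest count for B, T and erythroid markers, and also the longest narrow list, of 133131 intervals. The share of all protein-coding genes with such a peak was not counted in any library. The part of other cells in the old-only regions was not tested.

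Lymphoid genes had 0 of 16 beside old-only regions, also 0 beside young-only regions and 1 to 3 beside the sets that balance age. Regulators of HSCs had 7 of 22 (31.8%) beside old-only regions and 4 to 8 (18.2% to 36.4%) beside the other sets, which were smaller and had lower shares of all genes. The ETS factor gene Erg had 4 regions inside it, with folds of 2.38 to 2.97 and 3.23 to 6.38, Mecom had 2 inside, and Meis1, a homeobox gene, was nearest to 3. Fgd5, a marker of LT-HSCs, had a region inside with 4.51 and 4.80. A region 630 bp from Lyl1, a bHLH factor gene, lay inside the neighbouring Nfix and had 1.92 and 2.15.

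The 3 myeloid genes were Csf3r, Irf8 and S100a8. Immediate early genes had 4 of 14, 28.6% (Fos, Fosb, Jun and Klf6), against 1 to 3, and inflammation and interferon genes 3 of 17, 17.6% (Irf1, Tlr4 and Tnfaip3), against 0 to 4. Tlr4, a sensor of bacterial lipids, was the nearest gene of 5 regions, none inside it. The Irf8 region of 966 bp, 10960 bp from this monocyte factor gene, had folds of 2.93 and 9.50. Genes with little known role in blood were also found: cadherins had 15 of 97 (15.5%) against 1 to 16, potassium channels 19 of 94 (20.2%) against 4 to 18 and glutamate receptors 7 of 28 against 1 to 7. Within 1 kb of an end of such genes lay a region of 173 bp at the potassium channel gene Kcnh1, with 5.02 and 7.34, and one of 531 bp at the protocadherin gene Pcdhb10, with 2.93 and 5.54. Olfactory receptors had 9 of 1110 (0.811%) and vomeronasal receptors 6 of 355 (1.69%), both below the share of all genes, 11.4%.

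Most genes had a single region: 2033 of the 2501 nearest genes had 1, 354 had 2 and 12 had 5 or more. Bcl11a, a repressor of fetal globin, led with 6, of which 1 lay inside the gene and 1 at 979898 bp, with folds of 2.47 to 6.19 in aged replicate 1. The same gene was nearest to 1 young-only region and to 1 or 2 regions of each set that balances age. Zmiz1, a transcriptional coregulator gene, had 5, each inside its body, and Fut8, the core fucosyltransferase gene, had 5, of which 2 lay inside. Rbfox1, a splicing factor gene of 1527688 bp, had 5 inside, and Nrg3, a growth factor gene of 1108134 bp, had 5, of which 2 lay inside. Fut8 and Nrg3 had no young-only region, Zmiz1 had 1 and Rbfox1 had 3. At the Nrg3 regions of 913 and 524 bp the authors' deposited table gives log2 differences of 2.32 (FDR 0.000696) and 1.93 (FDR 0.00133).

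Promoters were touched rarely. The 1.90% of old-only regions that overlapped a RefSeq promoter window compares with 1.11% to 1.77% in the other one-sided sets and 12.7% of regions found in at least 2 libraries. The 39 protein-coding windows under old-only regions had a median GC content of 52.3% and a median of 5 CpG dinucleotides, against 56.3% and 13 over all 21263 such windows. Besides the genes above, those windows included the ones of E2f2, a cell cycle factor (folds 2.88 and 3.81), Ccr1, a chemokine receptor (4.24 and 6.10), H2-DMb2, a chain of an antigen-loading molecule (3.72 and 8.14), Ifi205, an interferon-induced gene (3.26 and 3.17), and Sin3a, a corepressor (2.47 and 2.92). The E2f2 region lay inside the gene, 8124 bp from the nearest gene end. At Sin3a the young libraries had strong broad peaks, with a −log10 p of 11.39 and 9.97, while at Nupr1 they had none. At Hbb-bs the folds were 2.94 and 4.29 and the nearest young narrow peak was 142 bp away.

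The windows were searched on both strands for 7 motifs chosen after the regions were known. Those of factors that act in blood cells were GATA, searched as AGATAA, RUNX, searched as TGTGGT, and ETS, searched as CCGGAA. The E-box was searched as CAGCTG, the AP-1 site as TGANTCA, and CEBP and CTCF sites by a fixed pattern each. No 2 of these patterns were required to lie apart, so matches could overlap. AP-1 letters were in a window of 9 of the 36 genes, against 1420 of 17492 genes with a window (8.12%), 618 of 11626 genes with a window under a region found in at least 2 libraries (5.32%) and 4 of 68 (5.88%) in the 5 other sets. Among those sets the shares were uneven, with 0 of 12 genes for young-only regions and 3 of 10 for aged replicate 1 and young replicate 2 only. The match lay inside the old-only region itself at 6 of the 9 genes, namely Sprr1a, Apol9a, Apol9b, Hbb-bs, Tspan4 and Nfic, and outside it at Cyp4b1, Ccm2 and Cacng5. The near-identical Apol9a and Apol9b supply 2 of the 9. The regions at Nfic and Ccm2 lay inside these genes, 4798 and 13297 bp from the nearest gene end.

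The regions at the printed AP-1 matches had folds of 4.15 and 6.21 at Sprr1a, 4.24 and 4.75 at Apol9a, and 4.24 and 5.75 at Apol9b, with young broad peaks of a −log10 p of 1.29 to 2.53. Of the other motifs, GATA letters were found at 4 genes (11.1%), each inside the region, against 11.2% of all genes with a window. RUNX was found at 4 (11.1%) against 17.2%, ETS at 3 (8.33%) against 20.9%, and CEBP at 0 against 0.246%. The E-box was found at 8 genes (22.2%) against 17.4% of all and 29.4% in the 5 other sets, and CTCF at 1 (2.78%) against 0.772%. A match is a description of letters and no evidence of binding.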

How the data were processed

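ATAC-seq was done on 25000 sorted LT-HSCs per sample, tagmented for 1 h at 37 °C and amplified with 11 to 12 PCR cycles, with fragments of 150 to 1000 bp kept, per the labels' protocols. The submitters' processing notes name FastQC 0.11.9, BWA 0.7.17, MACS2 2.1.2, DiffBind 2.14.0 and GRCm38; read shifting and duplicate removal are not given in the sources used here. The deposited peak lists, made by the authors per library, give a fold enrichment (a ratio) and −log10 p and −log10 q values, which were used within their own list only. The authors' deposited tables of differing sites give log2 levels and folds, a p-value and an FDR.

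Entries of the narrow lists that share an interval were reduced to 1 with the highest values. Regions were merged at 1 bp of overlap and annotated, by midpoint, with 21887 protein-coding genes of RefSeq GRCm38.p6, whose table holds no exons or strand, so exon, intron and UTR were not analysed here. Shares have exact Clopper-Pearson intervals. No test was run, since the measurements chose the regions. The regions and the gene lists were chosen with earlier results of these data known.

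Named were the 10 strongest and 5 widest regions, those within 1 kb of a list gene's end (at most 20), those at 5 genes with the most regions (11 genes tied at 5 regions, ordered by the sum of the lower −log10 q), those at an authors' narrow site, the 5 of smallest FDR at a broad site, and 2 on each side of the threshold; other named regions were chosen after their values were seen. Alternatives changed the peak threshold, merging, overlap, list length, chromosomes and libraries. Merging and distances were tested on simulated data. Software was bedtools 2.31.1 and Python 3.11.15 with pandas 2.3.3, numpy 2.4.6, matplotlib 3.10.9 and scipy 1.17.1.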

Additional observations from a re-analysis of the deposited data

How the results depend on the processing

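The count of 3158 old-only regions was 2105 at a −log10 q of at least 2, 1054 at a −log10 p of at least 5 and 211 where young broad peaks were barred too. Their share among age-specific regions, 70.7%, became 73.4%, 77.0% and 83.7% in these settings, the last with broad lists of unequal length. It was 68.6% when weaker young peaks were allowed, 59.9% with equal numbers of intervals per library and 52.1% with intervals over 150 bp only, a setting chosen after seeing the data. Leaving out 1 library gave 5891 to 18113 regions and shares of 38.9% to 83.1%. The 38.9% came without young replicate 1, with 9263 young-only and 5891 old-only regions, while without young replicate 2 there were 5034 and 7510 (59.9%). In both a young-only region needed a peak in 1 library and an old-only one in 2, so the order of the ages there rests on which young library is kept, and the cause was not tested. The share near gene ends, 4.85%, was 2.39% where young broad peaks were barred and 20.2% within 5 kb, and lay inside its interval in every other setting. The median width was 198 to 359 bp, the median distance 18565 to 29222 bp and the share on chromosome 15 2.97% to 4.89% over all settings. Of the 37 genes higher in old HSCs, 2 to 33 were nearest to an old-only region and 0 to 16 to a young-only one. The old-only count was the higher in each of the settings. The number of old-only regions ran from 211 to 18113 over these settings, and the share of all genes was counted in the main setting only. Read depth is unknown, so a missing peak limits the signal only to what the caller reached. No paired analysis was run, since no result comes from a test.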
